A study of Mus musculus with 33 samples.

Results

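The sites described here are genomic regions that carried a called p53 peak in nearly every lymphoma sample in which p53 had been activated, and in no sample in which it had not. Peaks of all 26 deposited lists were merged into 18927 regions wherever they overlapped by 1 bp or more. A region was kept when it had a peak in 9 or 10 of the 10 lists from activated cells and in none of the 16 lists from other cells. The rule left 478 regions, 2.53% of all regions, of which 163 were called in all 10 activated lists and 315 in 9 of them. The presence or absence of peaks chose these sites, so their pattern across lists is a description and was not tested. The rule did not directly use peak width, the place of each peak within its site or the place of sites in the genome. These were examined further. Width was still tied to the rule, since regions called in more of those 16 lists mostly had wider peaks. The place of peaks within a site was tied to the merging, which joined only overlapping peaks.

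The lists came from chromatin immunoprecipitation and sequencing (ChIP-seq) with the p53 antibody CM5p on lymph node cells of C57/Bl6 mice with Eµ-myc lymphomas, in which an immunoglobulin enhancer drives the Myc oncogene in B cells. In tumours 1 to 4 one copy of Trp53 was a knock-in (KI) and the other was deleted, and cells were given 100 nM OHT (4-hydroxytamoxifen) for 2 h, against ethanol (EtOH, 1 volume per 1000) for 2 h. Tumours 5 to 7 lacked both alleles of Arf and kept both wild-type alleles of Trp53. They were given 1 µM doxorubicin for 3 h or 5 µM (-)-Nutlin for 3 h, against cells of the same tumours that were untreated or had received water (1 volume per 1000), DMSO (0.5 volumes per 1000) or 5 µM (+)-Nutlin for 3 h. The OHT, doxorubicin and (-)-Nutlin lists are called activated lists below and the other 16 unactivated lists. Every group shared the Eµ-myc transgene. Cells were pressed out of lymph nodes without further purification, and peak lists hold no expression values, so the labelled cell type could not be checked against its markers.

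p53 is a transcription factor that binds DNA as a complex of identical subunits at response elements built from a repeated palindromic motif. In unstressed cells the ubiquitin ligase Mdm2 holds p53 low, and Arf, which Myc activity is known to induce, inhibits Mdm2. DNA damage by doxorubicin releases p53 through kinases that modify p53 and Mdm2. The (-) form of Nutlin fills the pocket of Mdm2 that p53 occupies, while its mirror image, the (+) form, is known to do so far less. In mouse models of p53 restoration by tamoxifen, p53 is fused to the hormone-binding part of the oestrogen receptor and becomes active when OHT is given.

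The lists differed in kind and in length, and both bear on any site defined by absence. Activated lists held 3597 to 11346 peaks and unactivated lists 116 to 2696. All 10 activated lists and the 4 unactivated lists of tumour 5 were made of wide peaks, none under 278 bp, and their median widths were 417 to 552 bp. The other 12 unactivated lists were made of narrow peaks of 68 to 111 bp in the median. Read depth is unknown here, and the lists hold no score or height, so absence from a list is the absence of a call and not of p53.

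Of the 2192 regions called in 9 or 10 activated lists, 478 (21.8%) were the sites described here, and the other 1714 had a peak in at least 1 unactivated list. Against the unactivated lists of tumour 5 alone, which are of the same wide kind as the activated lists, 681 of the 2192 regions (31.1%) had no peak. Against the 8 narrow lists of tumours 6 and 7 the number without a peak was 1169 (53.3%), and against the 4 EtOH lists 1646 (75.1%). Absence from the tumour 5 lists was thus the condition met by fewest regions, and absence from the EtOH lists, which held 116 to 742 peaks, the condition met by most.

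Just outside the rule lay 659 regions with 8 activated lists and no unactivated list, and 349 regions with 9 or 10 activated lists and exactly 1 unactivated list. That 1 list belonged to tumour 5 for 209 of the 349 regions (59.9%), to tumours 6 or 7 for 91 (26.1%) and to an EtOH list for the remaining 49. The untreated list of tumour 5, the longest unactivated list, alone accounted for 90. The median over regions of the median peak width across activated lists was 504 bp for the 478 sites, 474 bp for the 659 regions and 546 bp for the 349 regions. One region of the last kind, on chromosome 19 from 32786393 to 32787640, had peaks of 777 to 1159 bp in all 10 activated lists and a peak of 380 bp in untreated cells of tumour 5. A region of the first kind, on chromosome 17 from 71339171 to 71340269, had peaks of 685 to 1028 bp and was missing from the OHT list of tumour 1 and the doxorubicin list of tumour 6. Both had the highest mean percentile of peak width, ranked among all peaks of the same list, for regions of their kind, and were chosen after their values were seen.

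The site called in 9 lists was most often missing from a shorter list. OHT lists of tumours 1 to 4 lacked 108, 65, 0 and 12 of the 478 sites. Doxorubicin lists of tumours 5 to 7 lacked 1, 62 and 2. (-)-Nutlin lists of tumours 5 to 7 lacked 1, 4 and 60. The 3 shortest activated lists, OHT of tumours 1 and 2 and (-)-Nutlin of tumour 7, with 4102, 3597 and 5617 peaks, were among the 4 that lacked 60 or more. The fourth was the doxorubicin list of tumour 6 with 8250 peaks. The 6 lists with 9523 or more peaks lacked 12 sites or fewer each. Summed over lists, 185 sites were missing from the 4 OHT lists, 65 from the 3 doxorubicin lists and 65 from the 3 (-)-Nutlin lists. Each of the 3 treatments had a list that lacked at most 2 sites and a list that lacked 60 or more. Across the 10 lists, which share tumours, Spearman's rho between list length and missing sites was -0.82, given as a description.

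**Figure D1:**
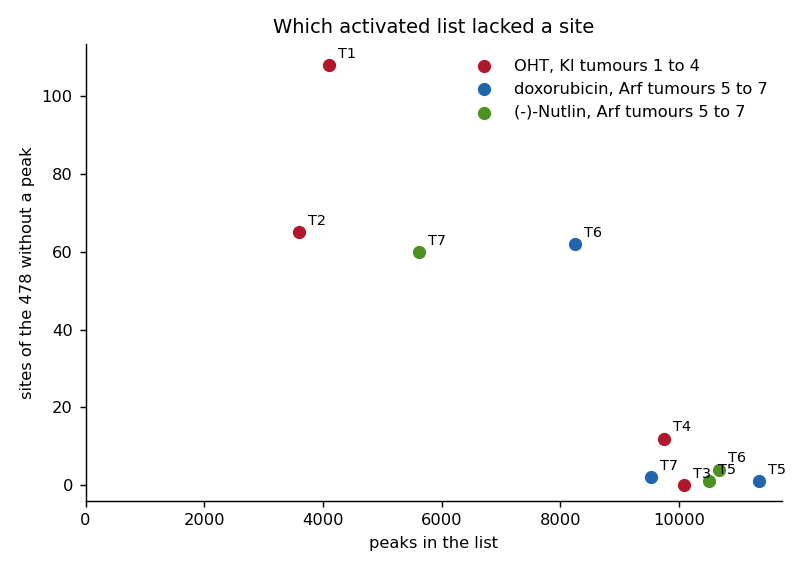
Number of the 478 sites without a peak in each activated list (vertical axis) against the number of peaks in that list (horizontal axis), 1 point per list, with T1 to T7 marking tumours 1 to 7 and colours the treatments. The 4 lists that lacked 60 or more sites held 3597 to 8250 peaks, and the 6 lists of 9523 peaks or more lacked 0 to 12.

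Peaks at the 478 sites were narrower than those at the 1714 regions also called without activation, in each of the 10 activated lists. In OHT lists of tumours 1 to 4 the median width was 430.5, 461, 591 and 525 bp at the sites and 509, 502, 650 and 583 bp at the other regions. In doxorubicin lists of tumours 5 to 7 it was 565, 403 and 556.5 bp at the sites and 734, 517 and 711 bp at the other regions. In (-)-Nutlin lists of tumours 5 to 7 it was 454, 471 and 495.5 bp at the sites and 629, 613.5 and 606 bp at the other regions. The ratio of the medians ran from 0.722 to 0.918, with a mean of 0.821 ± 0.0689 (SD, n = 10 lists, some sharing a tumour). It was 0.846 to 0.918 in OHT lists, 0.770 to 0.783 in doxorubicin lists and 0.722 to 0.818 in (-)-Nutlin lists, so that every OHT list had a ratio above that of every activated Arf list. Calls in unactivated lists set the 1714 regions apart from the sites. Those lists held 707 to 2696 peaks in Arf tumours and 116 to 742 in KI tumours. The part of this difference in the ratios was not tested. No p is given, since the sites were chosen with results of these lists known.

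**Figure D2:**
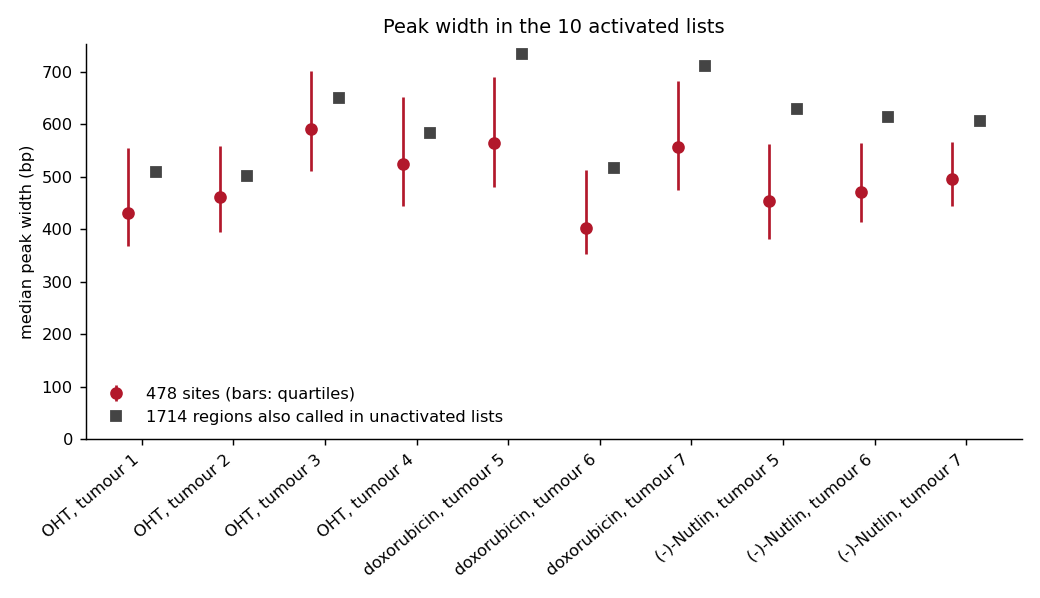
Median peak width in bp (vertical axis) in each of the 10 activated lists for the 478 sites (circles, bars from the lower to the upper quartile) and for the 1714 regions also called in at least 1 unactivated list (squares). The circle lies below the square in all 10 lists, from 403 bp beside 517 bp in doxorubicin-treated tumour 6 to 591 bp beside 650 bp in OHT-treated tumour 3.

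Placed among all peaks of the same list, the sites sat near the middle. The percentile of a peak is the share of peaks in its list that are no wider. The median percentile of the sites was 46.5, 51.6, 73.6 and 69.1 in OHT lists of tumours 1 to 4. It was 62.2, 29.7 and 50.7 in doxorubicin lists and 55.5, 64.0 and 41.0 in (-)-Nutlin lists of tumours 5 to 7. The ranges of the 3 treatments overlapped, and the doxorubicin list of tumour 6 ranked the sites lowest of all. In all 10 lists the 163 sites called everywhere had a higher median percentile than the 315 called in 9 lists. The sites exceeded the regions with 8 activated lists and no unactivated list in 10 of 10 lists. They exceeded the 14157 regions called in 1 to 8 activated lists and no unactivated list in 9 of 10 lists, the exception being doxorubicin-treated tumour 6, with 29.7 beside 45.4.

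Regions called in more unactivated lists had wider peaks after activation, with exceptions. Over the 2192 regions, the middle one of the 10 lists' median percentiles was 53.5 for the sites, 62.3 for regions with 1 unactivated list, 64.7 with 2, 70.3 with 3 or 4, 80.1 with 5 to 8 and 96.0 with 9 or more. The order held at every step in 5 of the 10 lists. In OHT lists of tumours 1 and 2 the sites lay above regions with 1 unactivated list, with 46.5 beside 40.2 and 51.6 beside 47.6. They also lay above regions with 2 unactivated lists, at 43.4 and 50.5. In the OHT list of tumour 1 regions with 3 or 4 unactivated lists were at 46.5 as well. In the OHT list of tumour 4 the regions with 9 or more unactivated lists fell back to a median percentile of 66.8, against 81.3 for those with 5 to 8. In the doxorubicin list of tumour 6 the sites were at 29.7 beside 29.5 for regions with 2 unactivated lists. In the 6 remaining lists, OHT of tumour 3, doxorubicin of tumours 5 and 7 and all 3 (-)-Nutlin lists, the sites had the lowest percentile of the series.

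**Figure D3:**
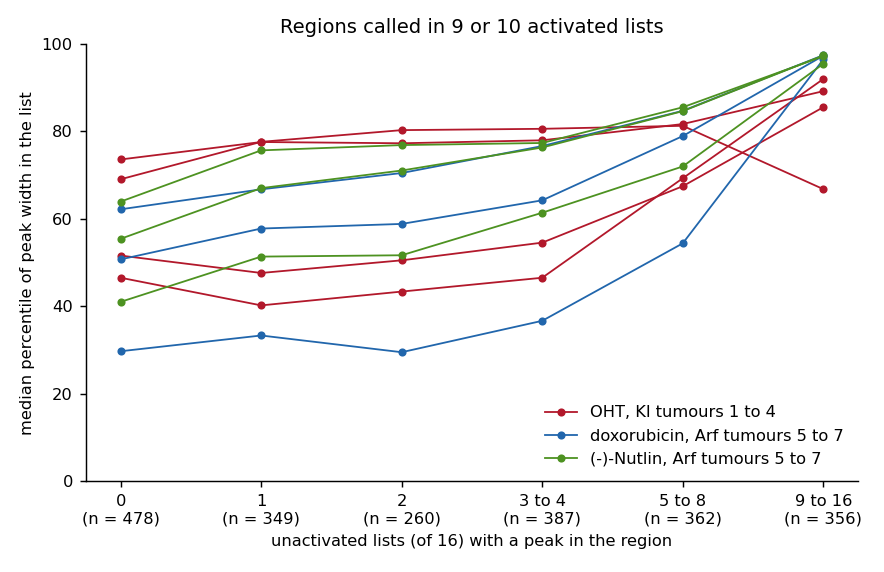
Median percentile of peak width within each activated list (vertical axis, 1 line per list, coloured by treatment) for regions called in 9 or 10 activated lists, grouped by the number of unactivated lists with a peak (horizontal axis, number of regions in brackets). The 478 sites are the group at 0, between 29.7 and 73.6, and the group of 9 to 16 lies between 66.8 and 97.4.

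Fewer of the sites than of the other regions lay among the widest peaks of a list. The longest unactivated list held 2696 peaks. Among the 2696 widest peaks of each activated list lay 218 to 317 of the 478 sites in OHT lists, 46 to 134 in doxorubicin lists and 112 to 151 in (-)-Nutlin lists. As shares these were 45.6% to 66.3% of the sites beside 52.7% to 74.8% of the 1714 other regions with OHT. They were 9.62% to 28.0% beside 35.9% to 59.2% with doxorubicin, and 23.4% to 31.6% beside 62.0% to 69.1% with (-)-Nutlin. When all activated lists were shortened to their 2696 widest peaks, an alternative chosen after seeing the data, the same rule kept 18 sites, all of them among the 478. The cut removed peaks from activated lists only, so regions outside the 478 could hardly enter. These 18 included 9 of the 10 sites described next, which were themselves picked by width.

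The 10 sites with the highest mean percentile among the 163 called in all 10 activated lists were taken as examples, and each had 0 peaks in the 16 unactivated lists. The first lay on chromosome 11 from 109286615 to 109287711 (mm9 throughout). Its peaks were 635, 785, 859 and 964 bp wide in OHT lists of tumours 1 to 4, 1087, 914 and 771 bp in doxorubicin lists of tumours 5 to 7 and 610, 1017 and 800 bp in (-)-Nutlin lists of tumours 5 to 7. The 3 treatments overlapped, and no list placed the site below the percentile of 79.3. The second, on chromosome 4 from 140239509 to 140240901, had peaks of 1300, 1115, 1216 and 1013 bp with OHT, 1029, 760 and 1175 bp with doxorubicin and 679, 614 and 545 bp with (-)-Nutlin. There the (-)-Nutlin lists were the narrowest 3 of the 10 and did not overlap with the others. The third, on chromosome 2 from 113688297 to 113689409, had peaks of 759, 656, 997 and 921 bp with OHT, 1023, 593 and 834 bp with doxorubicin and 966, 957 and 689 bp with (-)-Nutlin, again with overlap between treatments.

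The other examples varied more from list to list. On chromosome 17 from 17761073 to 17762661, peaks were 500, 1013, 1566 and 621 bp wide with OHT, 1282, 577 and 1578 bp with doxorubicin and 1439, 1376 and 670 bp with (-)-Nutlin. The 10 lists there split into 4 under 700 bp and 6 above 1000 bp, with both kinds in every treatment. On chromosome 1 from 88337762 to 88339559, peaks were 944, 486, 1796 and 1686 bp wide with OHT, 1098, 505 and 1010 bp with doxorubicin and 743, 1119 and 763 bp with (-)-Nutlin. The OHT lists of tumours 3 and 4 stood above all others at this site. On chromosome 5 from 123776401 to 123778271, peaks were 786, 1842, 1126 and 831 bp wide with OHT, 847, 718 and 636 bp with doxorubicin and 669, 657 and 638 bp with (-)-Nutlin. The OHT list of tumour 2 was the highest there, and the Arf lists lay within 636 to 847 bp.

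On chromosome 15 from 81857575 to 81858805, peaks were 1134, 1064, 945 and 770 bp wide with OHT, 721, 623 and 802 bp with doxorubicin and 581, 629 and 721 bp with (-)-Nutlin, and the OHT list of tumour 4 was the one below an Arf list. On chromosome 4 from 151539119 to 151540194, peaks were 610 to 892 bp wide with OHT, 869 to 997 bp with doxorubicin and 578 to 785 bp with (-)-Nutlin. The doxorubicin peaks there exceeded all (-)-Nutlin peaks. The last examples had overlapping treatments. Peaks were 523 to 1145 bp wide over the 10 lists on chromosome 10 from 13684188 to 13685362, and 452 to 1004 bp wide on chromosome 6 from 120529410 to 120530495.

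**Figure D4:**
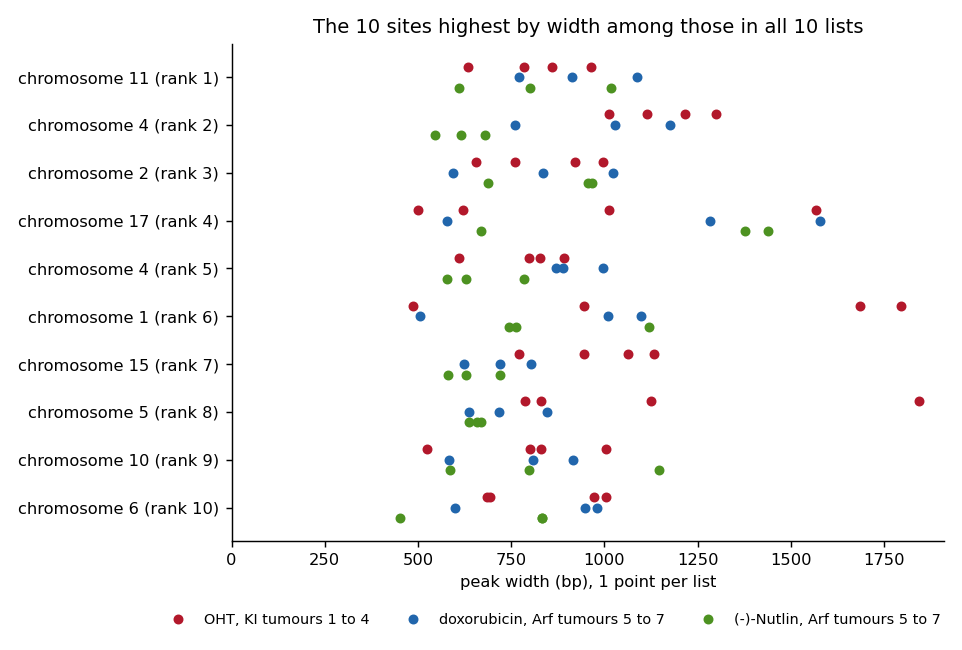
Peak width in bp (horizontal axis) at the 10 sites with the highest mean percentile among those called in all 10 activated lists (vertical axis, by chromosome and rank), 1 point per list, with OHT above doxorubicin above (-)-Nutlin in each row. At the second site, on chromosome 4, the (-)-Nutlin points, 545 to 679 bp, lie left of all others, while at the first site, on chromosome 11, the treatments overlap.

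At the other end of the 163, a site at 25893703 to 25894168 of chromosome 12 had peaks of 309 to 451 bp and a mean percentile of 23.7. Over all 478 sites the mean percentile ran from 22.4 to 89.7, with a median of 54.0. The lowest lay on chromosome 12 from 41172220 to 41172735 and the highest on chromosome 6 from 113327186 to 113328544. Both were called in 9 lists, the lowest being absent from OHT-treated tumour 2 and the highest from OHT-treated tumour 1. A mean percentile of 80 or more was reached by 26 sites (5.44%). The merged sites were 466 to 1900 bp long, with a median of 740.5 bp beside 925.5 bp for the 1714 other regions, and 78 were 1000 bp or longer. Merged lengths of the other regions also take in peaks of unactivated lists.

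Peaks of different lists lay close together within a site, which the merging of overlapping peaks favours by itself. The values that follow are therefore a description. The midpoints of the widest peak of each list spanned a median of 135.5 bp over the activated lists at the 478 sites and 150 bp at the 1714 other regions, which have wider peaks. The span was 200 bp or less at 372 sites (77.8%) and at 1195 of the other regions (69.7%). A stretch shared by the peaks of every list that called the site existed at 461 of 478 sites (96.4%), with a median length of 316 bp, beside 96.5% and 360 bp at the other regions. The chromatin had been sheared to 250 bp on average, per the labels' protocols. The 10 examples of wide sites above spread more, since 3 of them had midpoints within 200 bp. The widest spans among them were 892 bp on chromosome 1 from 88337762, 777.5 bp on chromosome 17 from 17761073 and 488 bp on chromosome 5 from 123776401.

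Lists ranked the sites by width in loosely similar ways. Across sites, which share the lists' backgrounds and are not replicates, Spearman's rho of peak width was 0.103 to 0.561 between OHT lists (6 pairs, 305 to 466 sites each). It was 0.260 to 0.521 between doxorubicin lists and 0.357 to 0.492 between (-)-Nutlin lists (3 pairs each). Doxorubicin and (-)-Nutlin lists of the same tumour gave 0.181 to 0.516 (3 pairs), and OHT lists paired with activated Arf lists 0.0719 to 0.539 (24 pairs). The ranges within a treatment, within a tumour and across genotypes overlapped.

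Width was then compared between treatments. The rule used neither width nor these contrasts directly. Regions called in more unactivated lists mostly had wider peaks, however, so width was not independent of the rule. Log2 widths, centred on each list's median, were fitted with limma over all 2192 regions in 9 or 10 activated lists, with Benjamini-Hochberg adjustment over all of them. Between OHT and the activated Arf lists, 177 of 2192 regions (8.07%) passed an adjusted p of 0.05, 21 wider (0.958%) and 156 narrower (7.12%) with OHT. Of the 478 sites 14 were wider and 0 narrower, so that the sites were called wider in 2.93% of cases. The log2 ratio was above 0 at 365 of 478 sites (76.4%) and at 1169 of all 2192 regions (53.3%), with medians of 0.16 and 0.02. This count rests on treating the doxorubicin and (-)-Nutlin lists of a tumour as separate samples. With 1 value per tumour, 4 against 3, limma called 0 of 2192 regions, with a lowest adjusted p of 0.0537, while 398 regions and 55 of the sites had an unadjusted p under 0.05.

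The lists that chose the sites differed between the genotypes. Absence from an unactivated KI list was required of EtOH lists with 116 to 742 peaks, and absence from an unactivated Arf list of lists with 707 to 2696 peaks. The part of this difference in the width result was not tested. OHT and the Arf treatments also differ in genotype, drug and time together, which cannot be told apart here. Without the OHT list of tumour 2 or that of tumour 3, limma called 0 of the sites. Of the 14 sites, 3 were still called without the doxorubicin list of tumour 7, and 5, 4 and 5 without the (-)-Nutlin list of tumours 5, 6 and 7. Without the doxorubicin list of tumour 5, 8 of the 14 were still called and 1 other site was called narrower. Without centring the lists the split was 7 wider and 1 narrower, with 269 of 478 sites and 776 of 2192 regions above 0.

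The 5 sites with the lowest adjusted p lay on chromosomes 2, 4, 5 and 17. The site on chromosome 2 from 164248123 to 164249340 had peaks of 657, 706, 870 and 1048 bp in OHT lists of tumours 1 to 4, against 479, 364 and 450 bp in doxorubicin and 622, 820 and 556 bp in (-)-Nutlin lists of tumours 5 to 7. The (-)-Nutlin list of tumour 6 overlapped with the OHT lists and the doxorubicin lists did not. The log2 ratio was 0.73 ± 0.15 (SE), with a limma adjusted p of 0.016. The second was the site on chromosome 4 from 140239509 to 140240901, whose widths are given above. Its log2 ratio was 0.71 ± 0.15 (SE), with a limma adjusted p of 0.016, and the doxorubicin lists of tumours 5 and 7 overlapped with the OHT lists.

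The third, on chromosome 5 from 101108763 to 101109936, was not called in OHT-treated tumour 1 and had OHT peaks of 472, 897 and 718 bp in tumours 2 to 4, against 396, 343 and 426 bp with doxorubicin and 428, 391 and 517 bp with (-)-Nutlin. Its log2 ratio was 0.77 ± 0.17 (SE), with a limma adjusted p of 0.0232 over the 9 lists that called it. On chromosome 17 from 88589912 to 88590604, OHT peaks of 420, 492, 693 and 587 bp stood against 474, 314 and 400 bp with doxorubicin and 348 and 405 bp with (-)-Nutlin in tumours 5 and 6. On chromosome 5 from 143670606 to 143671540, OHT peaks of 641, 730, 863 and 935 bp stood against 610, 339 and 722 bp with doxorubicin and 593, 585 and 412 bp with (-)-Nutlin. In these last sites the OHT lists overlapped with a doxorubicin list. Of the 14 sites, 1 had every OHT peak wider than every activated Arf peak. Over all 478 sites this held for 1, while 2 had every OHT peak narrower than every activated Arf peak. The same counts were not made over all fitted regions, so whether the sites differ from the background here was not tested. With 1 value per tumour the limma adjusted p of these 5 sites was 0.0537 to 0.0755, with all log2 ratios still above 0.

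**Figure D5:**
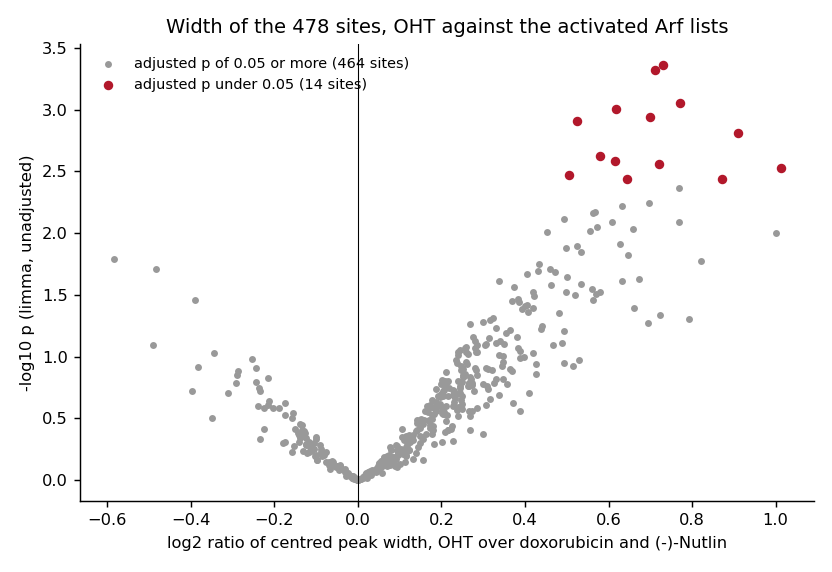
For each of the 478 sites, the log2 ratio of centred peak width in OHT lists over doxorubicin and (-)-Nutlin lists (horizontal axis) and the unadjusted limma p as -log10 (vertical axis), with the 14 sites past an adjusted p of 0.05 in red. All 14 lie right of 0, as do 365 of the 478 sites, and 0 of the 14 remained called with 1 value per tumour.

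Between doxorubicin and (-)-Nutlin, limma called 0 of 2192 regions (0%) and 0 of the 478 sites, with 158 regions and 38 sites at an unadjusted p under 0.05. With centred widths, 246 of 478 sites (51.5%) were wider with doxorubicin, beside 1174 of 2192 regions (53.6%). Without centring the counts were 319 sites (66.7%) and 1441 regions (65.7%). With percentiles in place of log2 widths, 170 sites (35.6%) and 729 regions (33.3%) were higher with doxorubicin. The direction thus depended on the scale, and the sites stayed near the share of all regions. A fit with the tumour as a block likewise called 0. The site with the lowest p, singled out after its values were seen, lay on chromosome 13 from 30805898 to 30807601. Its peaks were 1080, 1679 and 1554 bp wide in doxorubicin lists of tumours 5 to 7, against 585, 295 and 515 bp in (-)-Nutlin lists of the same tumours, and 587, 556 and 491 bp in OHT lists of tumours 1 to 3. The doxorubicin lists lay above all others, and OHT-treated tumour 4 had no peak. The log2 ratio of doxorubicin to (-)-Nutlin was 1.60 ± 0.33 (SE), with a limma adjusted p of 0.201, which became 0.00692 when lists were not centred and ranged from there to 0.995 over the alternatives. On chromosome 14 from 31405890 to 31406943, peaks were 834, 827 and 819 bp wide with doxorubicin against 377, 331 and 462 bp with (-)-Nutlin, a log2 ratio of 1.04 ± 0.25 (SE) with a limma adjusted p of 0.338.

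The sites were spread over chromosomes 1 to 19 and X. Chromosomes 2, 11 and 1 held 44, 42 and 41 sites, which are 9.21%, 8.79% and 8.58% of the 478, beside 7.64%, 7.96% and 6.45% of all 18927 regions. Chromosome 14 held 6 sites (1.26%), beside 67 of the 1714 other regions (3.91%) and 3.78% of all regions. Chromosome X held 3 sites, from 13038631 to 13039414, from 37853692 to 37854316 and from 156087991 to 156088667, the first and last called in all 10 lists. These shares were not tested.

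The median distance of the sites to regions called without activation lay between those of the other kinds of region. The nearest region with an unactivated peak was a median of 79.2 kb away, and 60 of 478 sites (12.6%) had one within 10 kb. For the 1714 regions also called without activation, the nearest other such region was a median of 59.4 kb away and within 10 kb in 12.8% of cases. For the 14157 regions with 1 to 8 activated lists and no unactivated list it was 93.1 kb and 10.1%. The closest case, on chromosome 1 from 130487319 to 130488260, lay 220 bp from such a region.

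A few sites lay close to one another. There were 11 pairs of neighbouring sites within 10 kb, and 2 of these pairs were within 1 kb. The closest pair lay on chromosome 10, from 126726237 to 126726840 and from 126727071 to 126727996, 230 bp apart and called in 10 and 9 activated lists. On chromosome 16 a run of 3 sites began at 4679400, 4680758 and 4683668, with gaps of 709 and 1755 bp. The site on chromosome 5 from 143670606 to 143671540 was called wider with OHT over lists, but not with 1 value per tumour. It had a neighbour 1795 bp away, from 143668106 to 143668810, with a median width of 424 bp beside 625.5 bp.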

How the data were processed

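BWA 0.6.2, SAMtools and the mouse build mm9 are what the submitters' processing notes name. How peaks were called, with which threshold and whether against the 7 input libraries, is not given in the sources used here. Each of the 26 deposited lists comes from 1 library and gives the authors' start and end positions of peaks in base pairs, with no other value. Coordinates are printed counted from 1. No genome or annotation of mm9 was used here, so nearby genes, gene lists and motifs are not analysed here and no sequence is printed.

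The sites and the tests were chosen with earlier results of these data known. Groups came from sample titles, and the tumour number pairs samples because it marks cells of the same tumour. Deviations of log2 width in doxorubicin and (-)-Nutlin lists of the same tumour correlated with r of 0.118, -0.0184 and 0.140 in tumours 5 to 7. Lists of different tumours gave r from -0.177 to 0.0620. Where a list had several peaks in a region, the widest counted. Widths were fitted with limma 3.58.1 in R 4.3.3 on 3 group means, with a missing list left missing, and p-values were adjusted by Benjamini-Hochberg over 2192 regions. Merging and fit were tested on simulated data. The examples followed a rule of the 10 highest mean percentiles among sites in all 10 lists and the 5 lowest adjusted p past 0.05 in each direction. Sites named otherwise were chosen after their values were seen. Each list is 1 library, and whether tumours came from separate mice is not stated in the labels.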

Additional observations from a re-analysis of the deposited data

How the results depend on the processing

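The number of sites was 478, 477 and 473 when peaks up to 200 bp apart were merged, when peaks up to 500 bp apart were merged and when 200 bp around each midpoint were used. It was 163 when all 10 activated lists were required, 1137 when 8 sufficed, 827 when 1 unactivated list was allowed, 52 when activated peaks had to reach the median width of all peaks, 37 with every activated list shortened to 3597 peaks and 18 with 2696 peaks, a setting added after seeing the data. It was 681 against the unactivated lists of tumour 5 alone, and ran from 508 to 961 when 1 tumour was left out, which drops its activated and its unactivated lists together while 1 absence among the rest stays allowed (854 without tumour 1, 816 without tumour 2, 961 without tumour 5, 918 without tumour 6 and 787 without tumour 7). The median over lists of the ratio of site to other region width, 0.800, moved by less than its SD under summed peak lengths, with regions in all 10 lists alone and without each list in turn.

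Between OHT and the activated Arf lists, regions called numbered 314 and sites 8 without centring, and 0 and 0 with percentiles in place of log2 widths or with 1 value per tumour, that last setting added after seeing the data. Without 1 list the regions called ran from 0 to 320 (320, 12 and 0 without OHT-treated tumours 1, 2 and 3, 87 without doxorubicin-treated tumour 7, and 77, 115 and 74 without (-)-Nutlin-treated tumours 5, 6 and 7) and the sites called from 0 to 20. Not centring moved the median log2 ratio of all regions by -0.11. Centring subtracts each list's median log2 width, so the shift comes from differences between the medians of the lists. Why those medians differed was not tested. The 1 site called narrower with OHT without centring lay on chromosome 17 from 5492121 to 5492995. Between doxorubicin and (-)-Nutlin, 7 regions and 1 site, the one on chromosome 13, were called without centring, 0 with the tumour as replicate block (138 at an unadjusted p under 0.05), and from 0 to 6 regions and 0 sites without 1 list. The 5 sites named for OHT stayed above 0 under every alternative run, and 6 to 11 of their 14 or 15 alternatives kept each past the threshold.

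Motif and gene distance alternatives were not run. Read depth is unknown, and a count of calls cannot show binding below a list's threshold.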
